A study of Mus musculus with 12 samples.

Results

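The guanylate-binding proteins (GBPs) and the immunity-related GTPases (IRGs) are families of GTP-hydrolysing proteins that cells make when interferon reaches them. The members described here are the 10 gene symbols Gbp2, Gbp3, Gbp5, Gbp7, Gbp9, Igtp, Irgm1, Irgm2, Iigp1 and Tgtp1, taken as named and not by their values. All 10 of them were among the 24619 genes of the deposited count table, and all 10 were among the 14400 genes that had enough counts to be tested. Lists of other genes were read around them: other GBP and IRG genes, genes that lean towards interferon gamma or towards type I interferon, receptors and signalling proteins, ligands, partners and effectors, and cell type markers.

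Messenger RNA was sequenced from primary mouse cardiac fibroblasts in 12 libraries, 3 for each of 4 groups. Cells of every group were starved for 12 h and then kept for 24 h in conditioned medium. Serum was listed for every library, at the same percentage in each. Conditioned medium is medium that other cells have released their products into. Here the other cells were adipocytes carrying a lentivirus. VEC_CM stands for the medium of adipocytes with the vector lentivirus and OE_CM for that of adipocytes with a lentivirus overexpressing the human microRNA hsa-miR-548ay. In TGF_VEC_CM and TGF_KD_CM the fibroblasts received TGF-beta1, a cytokine known to turn fibroblasts into matrix-making myofibroblasts, together with the medium of adipocytes carrying the vector lentivirus or a lentivirus inhibiting hsa-miR-548ay. Groups follow the sample titles, because in OE_CM and TGF_KD_CM the treatment label changes its microRNA from replicate to replicate (miR-549ay in replicate 2, miR-550ay in replicate 3). The labels name no strain, sex or age and no culture for a library, and they put the groups with and without TGF-beta1 in different parts of the study. Whether libraries of 1 group are separate cultures is unknown, so the p-values measure the spread between these libraries only, which may be technical.

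Library totals lay between 33379207 and 37226153 counts, so 3 counts corresponded to at most 0.0939 CPM (counts adjusted for library size with TMM factors), which is the counting floor of a library. The fibroblast markers Col1a1, Col1a2, Vim, Ddr2 and Pdgfra were abundant, whereas Dcn reached at most 10 counts, Lum at most 1 and Thy1 at most 18 in any library. The summed level of 9 macrophage markers ranged from 36.4 to 39.4 CPM over the VEC_CM libraries and from 16.9 to 29.4 CPM over those of OE_CM. With TGF-beta1 it ranged from 29.7 to 32.3 CPM (TGF_VEC_CM) and from 23.9 to 26.2 CPM (TGF_KD_CM). Of these markers the complement genes C1qa, C1qb and C1qc had at most 12 counts in any library, and Lyz2 was the most abundant. The summed level of 8 markers of T and natural killer cells stayed between 0.376 and 2.12 CPM in the 12 libraries.

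Both families act on membranes inside the cell. GBPs are large GTPases that assemble into coats on the vacuoles of intracellular parasites and on bacteria, and some feed into inflammasomes. Among the smaller IRGs, the Irgm proteins (Irgm1, Irgm2 and the product of Igtp) sit on the cell's own membranes and keep the others inactive there, while effector IRGs such as the products of Iigp1 and Tgtp1 load onto parasite vacuoles and disrupt them. Interferon gamma, whose signal reaches genes with GAS elements, is the classical inducer of both families. Type I interferons, whose signal reaches genes with ISRE elements, can induce many of the same genes.

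The strongest difference was between the inhibition medium and the vector medium in the presence of TGF-beta1. In TGF_KD_CM against TGF_VEC_CM, 9 of the 10 members were higher and none was lower at a Benjamini-Hochberg adjusted p below 0.05 (edgeR quasi-likelihood test, n = 3 libraries a group); Gbp5 was the exception. Tgtp1 entered the test only through the TGF_KD_CM libraries, and without it the count was 8 of 9. Over all genes tested, 23.0% were higher and 20.2% lower in that comparison. The median log2 fold change of the members was 3.46, beside -0.000262 over all genes. In these bulk libraries a larger share of responding cells and more RNA per cell cannot be told apart.

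The Irgm regulators carried the highest levels. Irgm1 had 621, 664 and 761 counts in the 3 libraries of TGF_VEC_CM and 3422, 3531 and 3600 in TGF_KD_CM. The groups lay far apart, at 18.7 ± 1.72 CPM (SD, n = 3) and 95.1 ± 2.02 CPM, a 5.08-fold rise (log2 fold change 2.35 ± 0.0576 SE, edgeR adjusted p = 9.03e-44). Irgm2 rose from 93, 120 and 120 counts to 1587, 1667 and 1581, which was 14.3-fold (log2 3.84 ± 0.121, edgeR adjusted p = 1.27e-23). Igtp, whose product is also called Irgm3, rose from 72, 74 and 62 counts to 855, 894 and 972, which was 12.9-fold (log2 3.69 ± 0.131, edgeR adjusted p = 9.91e-35). For these 3 genes the libraries within a group were close together and no library of one group approached the other.

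The effector IRGs rose from lower levels in TGF_VEC_CM. Iigp1, which encodes an effector that coats the vacuole of Toxoplasma, had 29, 27 and 43 counts in TGF_VEC_CM and 283, 428 and 389 in TGF_KD_CM (log2 3.45 ± 0.204, edgeR adjusted p = 5.19e-23). Tgtp1 had 5, 7 and 8 counts in TGF_VEC_CM and 66, 93 and 69 in TGF_KD_CM, a fitted log2 fold change of 3.47 ± 0.432. It passed the filter on low counts only through the TGF_KD_CM libraries, the sole group in which all 3 libraries reached 0.275 CPM, the level the filter asks for, so a gene like it had to differ and its value is given as a description with no p. Of the 50-base windows of its transcript, 91.4% also occur in transcripts of other genes, 89.4% in Tgtp2, so reads of Tgtp1 and Tgtp2 could have been split between them. Tgtp2 itself had a log2 fold change of 3.48 ± 0.333 in this comparison.

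Among the GBPs the response was uneven. Gbp3 showed the largest rise of all members, from 12, 29 and 8 counts in TGF_VEC_CM to 547, 574 and 486 in TGF_KD_CM, which was 32.1-fold (log2 5.0 ± 0.277, edgeR adjusted p = 4.68e-13). Gbp7 rose from 11, 12 and 10 counts to 99, 139 and 167 (log2 3.58 ± 0.339, edgeR adjusted p = 4.19e-14), and Gbp9 from 19, 17 and 29 to 66, 71 and 86 (log2 1.75 ± 0.345, edgeR adjusted p = 2.13e-05). In these 3 genes each TGF_KD_CM library lay above each TGF_VEC_CM library.

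Gbp2 and Gbp5 moved least. Gbp2, whose product is anchored to membranes by a lipid and gathers on parasite vacuoles, had 58, 75 and 38 counts in TGF_VEC_CM and 107, 141 and 114 in TGF_KD_CM, a 2.08-fold rise (log2 1.06 ± 0.255, edgeR adjusted p = 0.000972). Gbp5, known for promoting assembly of the NLRP3 inflammasome, had 13, 30 and 25 counts in TGF_VEC_CM and 63, 40 and 17 in TGF_KD_CM. The third TGF_KD_CM library fell inside the range of TGF_VEC_CM, and the log2 fold change of 0.80 ± 0.424 did not pass (edgeR adjusted p = 0.131). Without that library it was 1.15 with an adjusted p of 0.0199 (edgeR). Leaving out Tgtp1, whose value is a description, the 8 calls of the other members held under all 20 alternatives tried. One alternative was a filter of 1 CPM in 3 libraries. Gbp3, Gbp7, Gbp9 and Iigp1 reached 1 CPM in all 3 libraries in TGF_KD_CM alone, so that filter is no check on them.

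**Figure D1:**
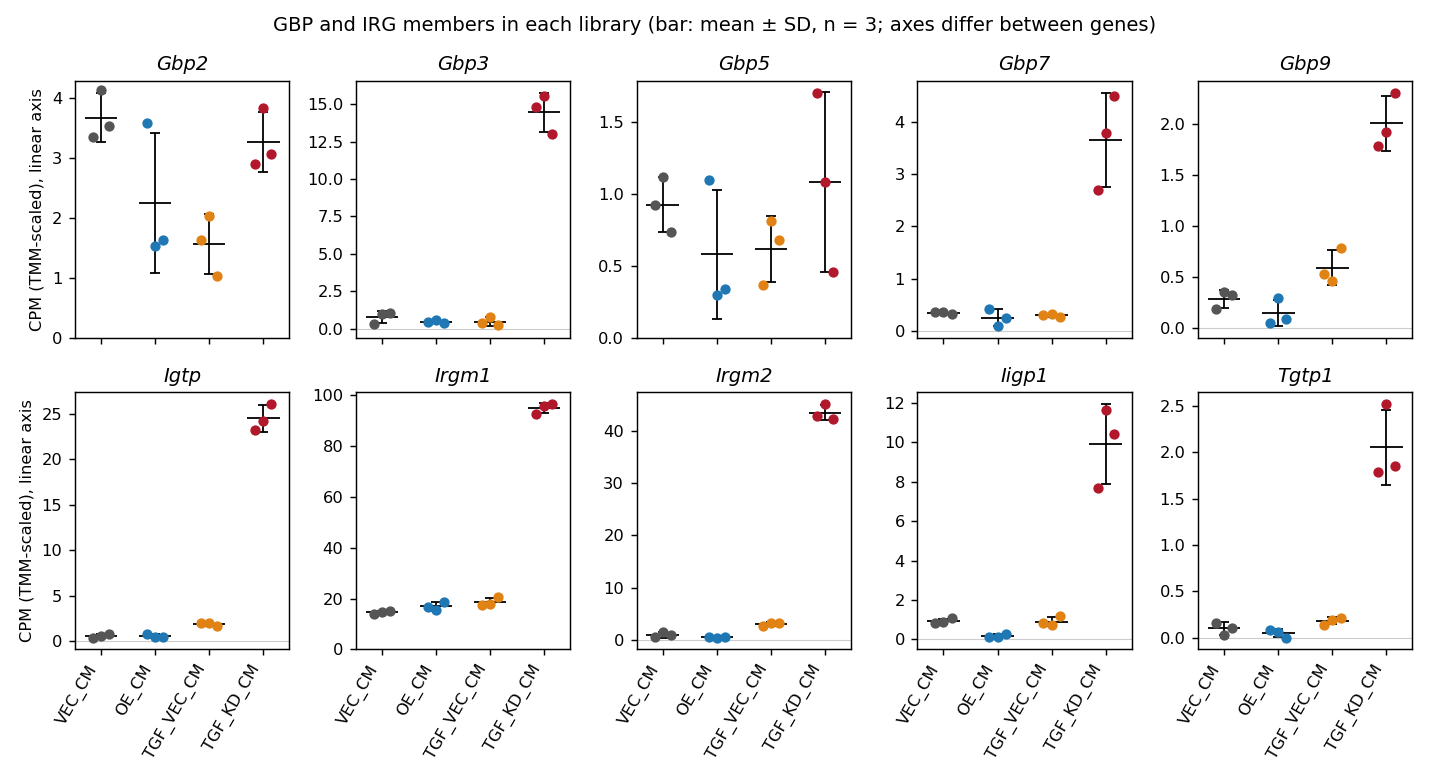
Level of each member in each of the 12 libraries, in TMM-scaled CPM on a linear axis whose range differs between genes; points are libraries, bars the mean and SD of the 3 libraries of a group. The TGF_KD_CM points stand above all others in 8 panels, whereas in those of Gbp2 and Gbp5 they overlap VEC_CM.

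Levels can be compared between genes only per transcript length, for which the deposited FPKM (counts scaled by transcript length and by library total) were used. In TGF_KD_CM the order of the mean FPKM was Irgm1 (34.8), Irgm2 (12.5), Igtp (12.2), Gbp3 (4.61), Iigp1 (2.88), Gbp2 (1.34), Tgtp1 (0.739), Gbp7 (0.655), Gbp5 (0.363) and Gbp9 (0.361). Irgm2 and Igtp overlapped between libraries, as did Tgtp1 and Gbp7, Gbp7 and Gbp5, and Gbp5 and Gbp9; the remaining neighbours in the order did not overlap. In VEC_CM the order was headed by Irgm1 (5.33 ± 0.188 FPKM, SD, n = 3) and Gbp2 (1.5 ± 0.163), and each of the other 8 members had a mean of at most 0.308. Irgm1 made up 84.3% to 89.3% of the summed FPKM of the 5 IRG members in the VEC_CM libraries and 90.8% to 93.8% in those of OE_CM. That share was 74.8% to 77.5% in TGF_VEC_CM and 54.4% to 55.8% in TGF_KD_CM. The summed IRG level itself was 8.59 to 9.96 FPKM in TGF_VEC_CM and 61.0 to 64.4 in TGF_KD_CM, and that of the 5 GBP members was 0.931 to 1.54 and 6.80 to 7.87.

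Because most members moved together, the sequences ahead of their transcription starts are shown, with the stretches that hold letters of the 2 interferon-response elements in capitals. The window searched was 300 bases, from 250 before the annotated start to 50 after it, as given by RefSeq on GRCm38.p6 for 8 of the 10 members; Gbp9 and Iigp1 are named only. The letters searched on both strands were TTCNNNGAA for GAS and GAAANNGAAA for ISRE; matches that overlap each other are shown as 1 run of capitals. Each line runs 5′ to 3′ in the direction of the gene and ends at the last base before the start, and gives 110 bases, or 250 for Gbp5 whose matches lie further upstream.

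Gbp2, chr3:142620553-142620662, plus strand, 1 ISRE match: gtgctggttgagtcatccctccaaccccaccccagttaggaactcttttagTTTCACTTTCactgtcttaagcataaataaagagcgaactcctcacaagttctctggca
Gbp3, chr3:142559934-142560043, plus strand, 2 overlapping ISRE matches: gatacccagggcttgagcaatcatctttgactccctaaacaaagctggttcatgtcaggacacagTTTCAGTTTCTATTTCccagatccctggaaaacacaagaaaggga
Gbp5, chr3:142496684-142496933, plus strand, GAS, ISRE and GAS matches in that order: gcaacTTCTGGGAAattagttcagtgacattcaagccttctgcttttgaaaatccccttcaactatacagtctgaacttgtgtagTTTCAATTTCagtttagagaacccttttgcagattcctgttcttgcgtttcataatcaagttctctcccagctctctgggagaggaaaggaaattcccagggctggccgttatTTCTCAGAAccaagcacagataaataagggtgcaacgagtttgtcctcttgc
Gbp7, chr3:142530226-142530335, plus strand, GAS, GAS and ISRE matches in that order: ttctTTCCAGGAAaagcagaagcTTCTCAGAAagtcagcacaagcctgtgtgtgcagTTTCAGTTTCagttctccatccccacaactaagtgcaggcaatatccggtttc
Igtp, chr11:58199446-58199555, plus strand, GAS then ISRE: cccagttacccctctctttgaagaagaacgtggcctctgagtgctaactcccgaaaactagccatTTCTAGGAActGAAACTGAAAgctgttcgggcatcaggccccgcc
Irgm2, chr11:58214867-58214976, plus strand, GAS then ISRE: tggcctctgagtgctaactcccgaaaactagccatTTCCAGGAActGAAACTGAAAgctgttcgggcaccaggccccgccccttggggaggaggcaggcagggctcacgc
Tgtp1, chr11:48992247-48992356, minus strand, GAS then ISRE: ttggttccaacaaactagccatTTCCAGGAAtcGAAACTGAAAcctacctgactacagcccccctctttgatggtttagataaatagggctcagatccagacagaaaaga
Irgm1, chr11:48871421-48871530, minus strand, 2 overlapping ISRE matches: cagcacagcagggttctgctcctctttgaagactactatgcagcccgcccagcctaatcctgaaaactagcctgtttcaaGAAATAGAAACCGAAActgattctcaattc

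The ISRE letters occurred in 8 of the 8 members with a window and the GAS letters in 5 of 8, namely Gbp5, Gbp7, Igtp, Irgm2 and Tgtp1. Over all 32851 promoter windows of the same length, 3.44% held the ISRE letters, 8.30% the GAS letters and 0.454% both. Gbp3 has a second annotated window, which held neither. In Igtp, Irgm2 and Tgtp1 the pair had the same layout, a GAS match followed by an ISRE match with 2 bases between them. Apart from that shared layout the distance to the start differed, the GAS match beginning at position -45 in Igtp, -75 in Irgm2 and -88 in Tgtp1. The windows of Igtp and Irgm2 share a run of 38 identical bases. Tgtp1 shares a run of 20 with Irgm2 and of 14 with Igtp, so Igtp, Irgm2 and Tgtp1 are not independent examples. A match of letters is a description of the sequence and not evidence of a bound factor.

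**Figure D2:**
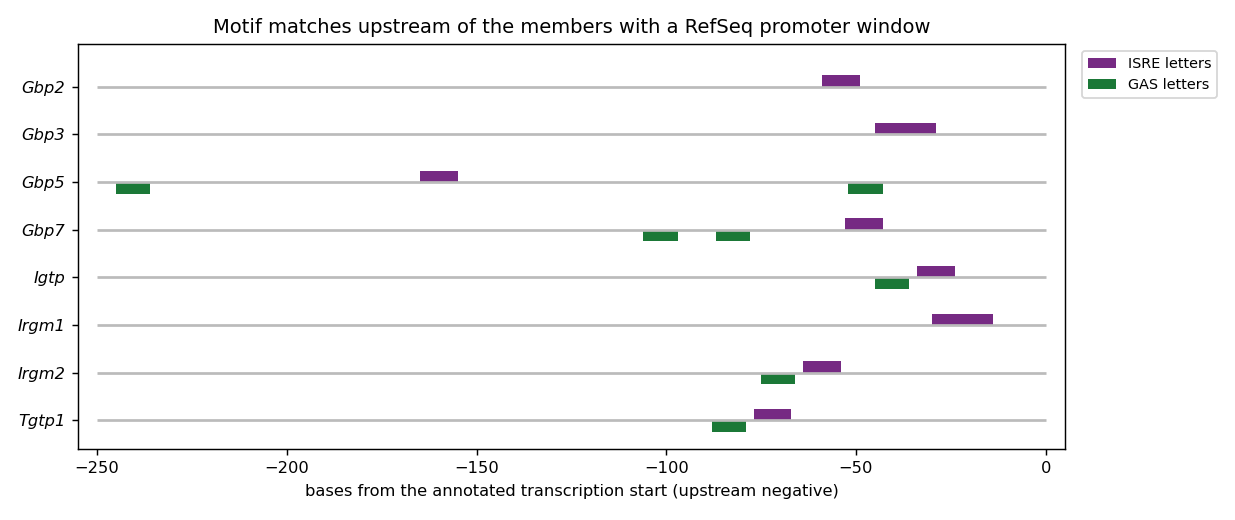
Position of the ISRE letters (purple, above the line) and the GAS letters (green, below the line) in bases from the annotated start for the 8 members with a window. ISRE matches begin at position -77 or nearer to the start in 7 members and at position -165 in Gbp5.

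The members with both kinds of match did not form the group with the highest fold changes. Gbp3, with ISRE letters alone, had the largest log2 fold change in TGF_KD_CM against TGF_VEC_CM (5.0), while Gbp5, with 2 GAS matches and 1 ISRE match, had the smallest (0.80). Igtp, Irgm2, Tgtp1 and Gbp7, which held both, lay between 3.47 and 3.84. Gbp2 and Irgm1, with ISRE letters alone, were at 1.06 and 2.35. No test was made of these 8 values.

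The members sit in clusters of related genes, so their neighbours were read in chromosomal order. The cluster on chromosome 3 (142496934 to 142638008, GRCm38.p6) holds Gbp5, Gbp7, Gbp3, Gbp2b and Gbp2, and its deletion is known to make mice sensitive to Toxoplasma. In TGF_KD_CM against TGF_VEC_CM the log2 fold changes along it were 0.80 for Gbp5, 3.58 for Gbp7, 5.0 for Gbp3, 2.66 ± 0.372 for Gbp2b and 1.06 for Gbp2, so the 2 genes at the ends moved least. On chromosome 5, Gbp9 at 1.75 was followed by Gbp4 at 0.75 ± 0.505, which did not pass, and by Gbp10 at 3.91 ± 0.389 and Gbp6 at 3.42 ± 0.333. The IRG genes of chromosome 11 lie in 2 stretches. In the first, Irgm1 (2.35), Tgtp1 (3.47), Tgtp2 (3.48) and Ifi47 (1.13 ± 0.201) rose, while 9930111J21Rik1 (0.01 ± 0.208) and 9930111J21Rik2 (0.35 ± 0.476) lie among them and did not pass. In the second, Gm12250 (1.62 ± 0.521, from 5 to 7 counts in TGF_VEC_CM), Igtp (3.69) and Irgm2 (3.84) lie side by side. Igtp and Irgm2 share 12.3% of the 50-base windows of Igtp. Iigp1 lies on another chromosome. These neighbours were named for their position, after their values had been seen.

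**Figure D3:**
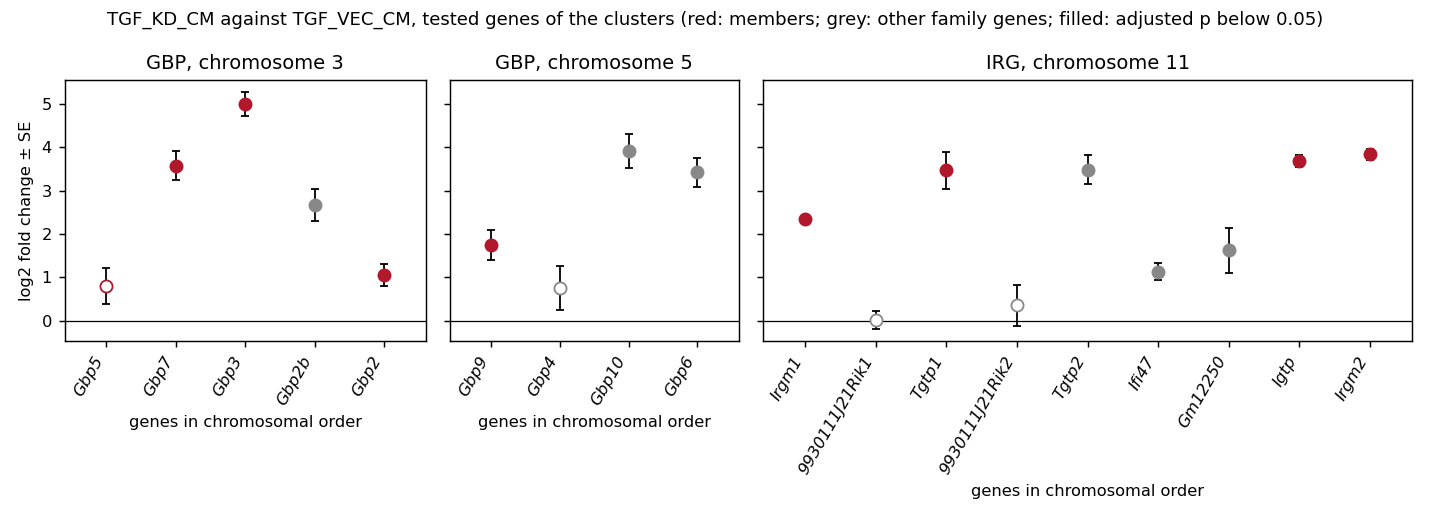
Log2 fold change and SE in TGF_KD_CM against TGF_VEC_CM for the tested genes of 3 clusters, in chromosomal order; red points are members, grey points other family genes, and filled points passed an adjusted p of 0.05. Genes near 0 (9930111J21Rik1 and 9930111J21Rik2) stand between genes that rose more than 2-fold.

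Other genes of the families behaved less evenly than the 10 members. Of 17 other GBP and IRG genes, 14 were in the table and 12 were tested; 8 were higher, 0 lower and 4 did not pass, with a median log2 fold change of 1.63. The largest rises were those of Gbp10, of Gvin1 (3.71 ± 0.549), which encodes a very large interferon-inducible GTPase, and of Tgtp2. Of the genes called, Gbp10, Gvin1, F830016B08Rik and Gm12250 reached 0.275 CPM in all 3 libraries in TGF_KD_CM alone. Like Tgtp1, the first 3 of these entered the test through that group, so their values are a description. Gm12250 reached that level in some libraries of VEC_CM and OE_CM as well. It had only 5 to 7 counts in TGF_VEC_CM and 17 to 20 in TGF_KD_CM. With a stricter filter of 1 CPM in 3 libraries, which removes low genes, 5 of those it kept were higher. Gbp2b, Gbp6, Gbp10 and Tgtp2 reached 1 CPM in TGF_KD_CM alone, so that filter is no check on them.

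The choice of these members was tied to their known response to interferon gamma, and 2 further lists were read beside them. Of 17 tested genes that lean towards interferon gamma, such as the class II antigen presentation genes, 3 were higher, 4 lower and 10 did not pass, with a median log2 fold change of -0.33. Over all genes tested 23.0% were higher and 20.2% lower, which is near the shares in this list. Some of its genes were low, such as Icam1 with 6 to 21 counts in TGF_VEC_CM and 8 to 12 in TGF_KD_CM. The largest changes among those that passed were Batf2 (1.62 ± 0.181), Nos2 (1.28 ± 0.133), the inducible nitric oxide synthase, and Ciita (-1.06 ± 0.328), the master regulator of class II genes. Of 16 tested genes that lean towards type I interferon, 15 were higher, 0 lower and 1 did not pass, with a median of 4.49. Ifi44 (6.65 ± 0.0841), Oas2 (5.74 ± 0.161) and Ifit1 (5.66 ± 0.193) led that list. The difference between the lists was not tested. Most of these genes can respond to both kinds of interferon, and the type of interferon was not measured.

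**Figure D4:**
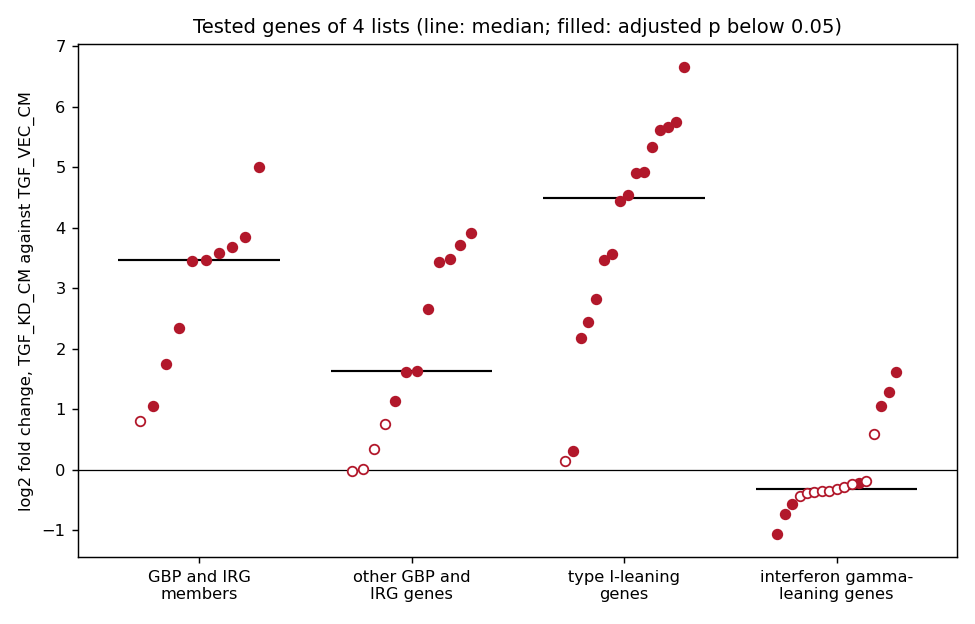
Log2 fold change in TGF_KD_CM against TGF_VEC_CM for the tested genes of 4 lists, sorted within each list; lines are medians and filled points passed an adjusted p of 0.05. The members (median 3.46) and the type I-leaning genes (4.49) lie mostly above 1, and the interferon gamma-leaning genes (-0.33) mostly below 0.

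Of the 10 ligand genes listed, 3 were in the count table (Ifng, Ifnb1 and Ifne), and 0 were tested. Transcripts of these 3 were at the limit of detection. The interferon alpha genes listed were not in the table, so their levels are unknown here. Ifng had 0 counts in each TGF_KD_CM library, which allows up to 3 counts, or at most 0.0814 CPM, in any of them. In the other groups it had 0, 1 and 1 counts (VEC_CM), 0 in all 3 (OE_CM) and 1, 0 and 4 (TGF_VEC_CM). Ifnb1 had 1 count in the third library of TGF_VEC_CM and 1 in the third of TGF_KD_CM, and none elsewhere. Of the 11 receptor and signalling genes, 9 were higher in TGF_KD_CM against TGF_VEC_CM, 0 lower and 2 did not pass, with a median of 0.37. Irf9 (2.02 ± 0.0583), which encodes a DNA-binding protein of type I interferon signalling, and Stat2 (1.64 ± 0.0533), which encodes a transcription factor of the same route, were among those that rose.

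Partners and effectors of the GTPases changed less than the members. This list holds enzymes that attach lipid anchors, autophagy proteins that place GBPs and IRGs on vacuoles, and inflammasome proteins. Of 23 genes, 11 were higher, 1 lower and 11 did not pass in TGF_KD_CM against TGF_VEC_CM, with a median of 0.16. Over all genes tested 23.0% were higher and 20.2% lower. Trim21 (2.73 ± 0.136), an antibody receptor and ubiquitin ligase, and Casp4 (1.39 ± 0.0496), the mouse caspase-11 that GBPs help to activate, rose. Nlrp3 (-1.80 ± 0.481), the inflammasome sensor, fell.

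The overexpression medium, compared with vector medium without TGF-beta1, moved fewer members and by less. In OE_CM against VEC_CM 3 members were lower, 1 was higher and 6 did not pass, beside 25.7% of all tested genes lower and 28.4% higher. The split over all genes depended on the scaling: 52.5% of the calls were higher with TMM factors and 35.6% with upper-quartile factors. The members' median log2 fold change was -0.73, beside -0.00812 over all genes. The count of 4 members past the threshold was 2 without VEC_CM replicate 2 and 2 without OE_CM replicate 3.

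Iigp1 showed the clearest fall. It had 30, 33 and 39 counts in VEC_CM and 5, 4 and 9 in OE_CM, with no overlap, at 0.928 ± 0.127 and 0.181 ± 0.0880 CPM (SD, n = 3). That was 5.11-fold lower (log2 fold change -2.35 ± 0.359, edgeR adjusted p = 6.51e-08), and the call held under all 20 alternatives. Irgm2 had 17, 57 and 32 counts in VEC_CM and 16, 13 and 15 in OE_CM (log2 -1.14 ± 0.315, edgeR adjusted p = 0.00257). Its VEC_CM libraries were far apart, and without the second of them the log2 fold change was -0.61 with an adjusted p of 0.0967 (edgeR).

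Irgm1 was the single member that rose, by a small amount, from 518, 540 and 555 counts to 584, 516 and 598. The raw counts overlapped, while the CPM did not (14.1, 14.8 and 15.2 in VEC_CM, 16.5, 15.4 and 18.7 in OE_CM). The log2 fold change of 0.20 ± 0.0688 (edgeR adjusted p = 0.0114) became 0.11 with an adjusted p of 0.168 under upper-quartile factors, and 0.10 with an adjusted p of 0.210 with limma on log2(FPKM + 1). It was also not called without VEC_CM replicate 1 (0.17, adjusted p = 0.0614, edgeR) or without OE_CM replicate 3 (0.12, adjusted p = 0.162, edgeR).

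Gbp2 and Gbp5 shared one odd library. Gbp2 had 123, 151 and 129 counts in VEC_CM and 127, 51 and 52 in OE_CM, so the first OE_CM library was at the VEC_CM level and the other two were not. Its log2 fold change was -0.70 ± 0.244 (edgeR adjusted p = 0.0163), and the call was lost without VEC_CM replicate 2 (-0.60, adjusted p = 0.0738), OE_CM replicate 2 (-0.48, adjusted p = 0.103) or OE_CM replicate 3 (-0.51, adjusted p = 0.0987, all edgeR). Gbp5 had 34, 41 and 27 counts in VEC_CM and 39, 10 and 11 in OE_CM and did not pass (log2 -0.65 ± 0.438, edgeR adjusted p = 0.214). Without OE_CM replicate 1 it was -1.52 with an adjusted p of 0.00673 (edgeR). The same library stood apart from the other two in genes of more than 1 kind. Ptprc, the pan-leukocyte marker, had 31, 6 and 7 counts in OE_CM and 31, 34 and 28 in VEC_CM, and Irf8 had 37, 6 and 5 counts in OE_CM and 27, 39 and 32 in VEC_CM. Of the type I-leaning genes, Rsad2 had 127, 21 and 23 counts in OE_CM and Isg15 had 38, 7 and 7. The complement genes were low and not highest there throughout: C1qa had 3, 11 and 1 counts, C1qb 10, 6 and 1, and C1qc 3, 5 and 2. Its summed level of 9 macrophage markers was 29.4 CPM, beside 21.1 and 16.9 in the other OE_CM libraries, and 2 of the 7 macrophage markers tested were lower and 0 higher in OE_CM, beside the 25.7% of all genes lower. Ptprc, Irf8, Rsad2 and Isg15 were picked out after their values had been seen. The part of other cells in the lower values of Gbp2, Gbp5, Irgm2 and Iigp1 in OE_CM was not tested.

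In the remaining members the counts were low in both groups. Gbp3 had 11, 35 and 37 counts in VEC_CM and 16, 18 and 11 in OE_CM (log2 -0.76 ± 0.404, edgeR adjusted p = 0.123), and it passed without VEC_CM replicate 1 (-1.14, adjusted p = 0.00180, edgeR). Gbp9 had 7, 13 and 12 counts in VEC_CM and 2, 10 and 3 in OE_CM, and did not pass (log2 -0.95 ± 0.540, edgeR adjusted p = 0.133). Without OE_CM replicate 2 it was -1.92 with an adjusted p of 0.0159 (edgeR). Gbp7 (-0.42 ± 0.448) had 13, 13 and 12 counts in VEC_CM and 15, 3 and 8 in OE_CM. Igtp (0.07 ± 0.280) had 14, 21 and 27 counts in VEC_CM and 29, 16 and 15 in OE_CM, and the groups overlapped. Tgtp1 had 6, 1 and 4 counts in VEC_CM and 3, 2 and 0 in OE_CM, at or near the floor of 3 counts. The first OE_CM library was again the highest of its group in Gbp7, Igtp and Tgtp1, but not in Gbp3 or Gbp9.

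**Figure D5:**
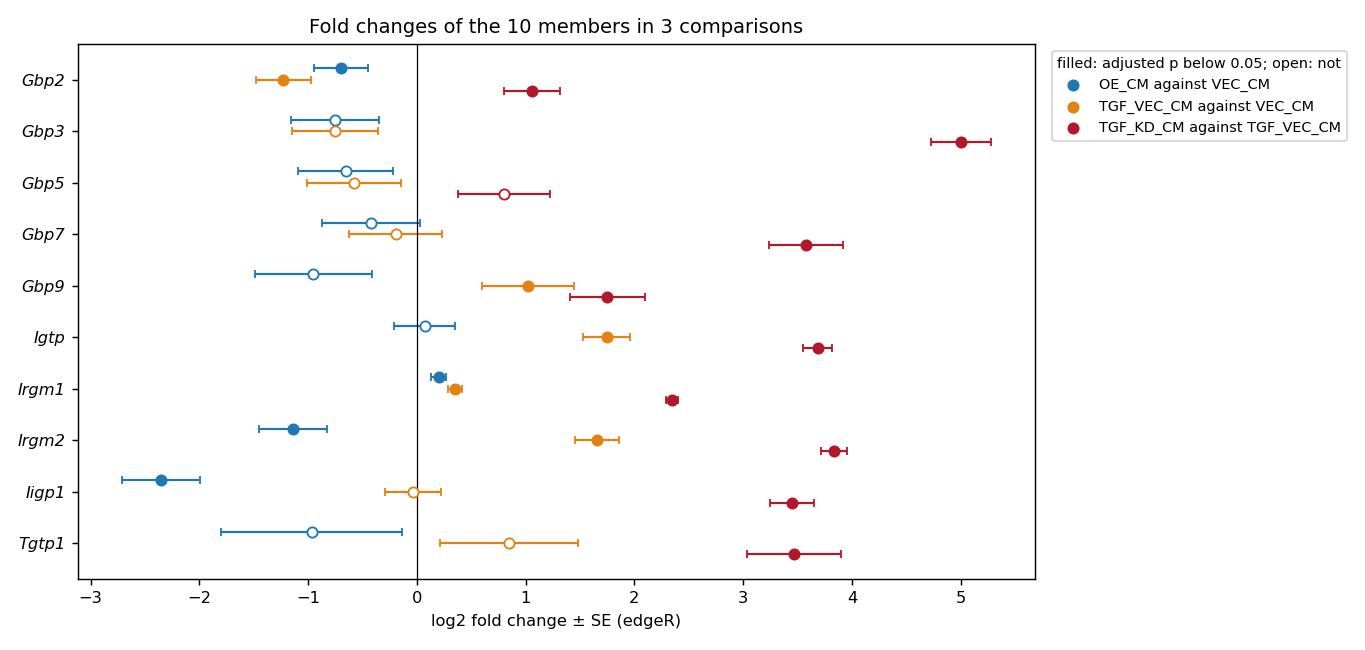
Log2 fold change and SE of each member in OE_CM against VEC_CM (blue), TGF_VEC_CM against VEC_CM (orange) and TGF_KD_CM against TGF_VEC_CM (red); filled points passed an adjusted p of 0.05. The red points lie to the right of the other two in every row, from 0.80 (Gbp5) to 5.0 (Gbp3), and the blue ones between -2.35 (Iigp1) and 0.20 (Irgm1).

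The lists around the members were mixed in OE_CM against VEC_CM, where 28.4% of all tested genes were higher and 25.7% lower. Among other GBP and IRG genes 2 of 12 were higher, 9930111J21Rik1 (2.41 ± 0.343) and Ifi47 (1.17 ± 0.257), 0 were lower and 10 did not pass, with a median of -0.17. Of the 17 interferon gamma-leaning genes 3 were higher and 9 lower (median -0.48), with Serpina3g at 3.75 ± 0.637, Ciita at -2.70 ± 0.478 and Icam1 at -1.26 ± 0.491. Serpina3g had only 0 to 4 counts in VEC_CM and 17 to 37 in OE_CM, the sole group in which all 3 libraries reached 0.275 CPM. The Icam1 call was lost without VEC_CM replicate 2, OE_CM replicate 2 or OE_CM replicate 3. Of the 16 type I-leaning genes 0 were higher, 6 lower and 10 did not pass (median -0.64), with Oas3 at -1.70 ± 0.160 and Ifit1 at -1.29 ± 0.350. Without OE_CM replicate 1, 10 of them were lower. Of the 11 receptor and signalling genes 3 were higher and 6 lower, with Ifngr2, a chain of the interferon gamma receptor, at 0.42 ± 0.0406, and of the 23 partners 8 were higher and 6 lower, led by Casp4 (-1.15 ± 0.0505).

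The members were also read between the vector media with and without TGF-beta1. The groups belong to the 2 parts of the study, so TGF-beta1 and the part cannot be told apart. In TGF_VEC_CM against VEC_CM 4 members were higher, 1 was lower and 5 did not pass, beside 28.9% of all genes higher and 29.4% lower. The median was 0.16, beside 0.00405 over all genes. All 3 Irgm regulators were among the higher ones. Igtp rose from 14, 21 and 27 counts to 72, 74 and 62 (log2 1.75 ± 0.217, edgeR adjusted p = 2.12e-10) and Irgm2 from 17, 57 and 32 to 93, 120 and 120 (log2 1.65 ± 0.202, edgeR adjusted p = 1.40e-08), without overlap. Irgm1 rose by 0.35 ± 0.0671 on the log2 scale (edgeR adjusted p = 8.33e-06).

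Gbp2 went the other way. Its 123, 151 and 129 counts in VEC_CM stood against 58, 75 and 38 in TGF_VEC_CM, 2.34-fold lower (log2 -1.23 ± 0.253, edgeR adjusted p = 0.000103). The summed macrophage markers were also lower in TGF_VEC_CM than in VEC_CM, with 3 of 7 tested called lower and 0 higher beside 29.4% of all genes lower, and their part in the Gbp2 value was not tested. Gbp9 was called higher (log2 1.02 ± 0.424, edgeR adjusted p = 0.0344), a call lost without VEC_CM replicate 1 (0.80, adjusted p = 0.141) or TGF_VEC_CM replicate 3 (0.78, adjusted p = 0.172, both edgeR). Gbp3 did not pass (-0.75 ± 0.396, edgeR adjusted p = 0.111), although it did without VEC_CM replicate 1 (-1.12, adjusted p = 0.00171) or TGF_VEC_CM replicate 2 (-1.43, adjusted p = 0.00181, both edgeR). Gbp5 (-0.58 ± 0.431), Gbp7 (-0.19 ± 0.429), Iigp1 (-0.04 ± 0.256) and Tgtp1 (0.85 ± 0.635) did not pass. Among the lists, 10 of 16 type I-leaning genes were higher and 0 lower (median 0.57), led by Usp18 (2.20 ± 0.182), and 5 of 17 interferon gamma-leaning genes were higher and 1 lower (median 0.19), led by Cxcl9 (3.20 ± 0.443). Of the other family genes 3 of 12 were higher and 1 lower (median -0.00287), led by 9930111J21Rik1 (3.95 ± 0.302).

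Read across the 4 groups, Gbp2 had 107, 141 and 114 counts in TGF_KD_CM, within or close to its 123 to 151 counts in VEC_CM, while Irgm2, Igtp, Gbp3, Gbp7, Gbp9, Iigp1, Tgtp1 and Irgm1 reached levels above every library of the other 3 groups. No test of TGF_KD_CM against VEC_CM was made.

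The effects of the 2 manipulated media were set against each other. They differ in the manipulation (inhibition or overexpression), in TGF-beta1 and in the part of the study, which cannot be told apart here. The TGF_KD_CM effect less the OE_CM effect, tested in the same model, was higher for 10 of 10 members (9 of 9 without Tgtp1) and lower for 0, beside 26.8% of all genes higher and 25.6% lower. Its median over the members was 3.81 on the log2 scale, beside 0.0229 over all genes. Iigp1 (5.80 ± 0.400, edgeR adjusted p = 2.70e-20) and Gbp3 (5.76 ± 0.509, edgeR adjusted p = 1.14e-09) had the largest differences. Gbp5 had the smallest (1.45 ± 0.610, edgeR adjusted p = 0.0440) and lost the call in 11 of 19 alternatives, with adjusted p up to 0.198. Of the lists, 15 of 16 type I-leaning genes had a higher difference, 0 a lower one (median 5.20), and of the 17 interferon gamma-leaning genes 4 had a higher and 3 a lower one (median 0.25).

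The genes whose level over the 12 libraries was most like the members' mean profile were Trim30a, Parp14, Oas1a, Trim21 and Oas1g. Likeness was the root mean square distance of log2 CPM, centred per gene over the 12 libraries, and was 0.189 for Trim30a, 0.208 for Parp14, 0.279 for Oas1a, 0.285 for Trim21 and 0.291 for Oas1g. The members themselves lay at 0.423 (Gbp7) to 1.35 (Gbp2) from their own mean profile, so each of the 5 genes was nearer to it than any member. Trim30a, as an example, had 14.4 ± 1.76 CPM in VEC_CM, 8.92 ± 0.835 in OE_CM, 14.1 ± 1.93 in TGF_VEC_CM and 123.2 ± 3.25 in TGF_KD_CM (SD, n = 3).

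Reads that fit more than one gene bear on a few of these values. The share of 50-base windows of a member's longest transcript that also occur in other genes' transcripts was 12.8% for Gbp7, 12.3% for Igtp, 9.56% for Gbp9, 7.36% for Irgm2 and 4.79% for Gbp3. It was 3.19% for Iigp1, 2.07% for Gbp2, 0.995% for Irgm1 and 0.234% for Gbp5, and Tgtp1 with 91.4% stood alone. How such reads were counted is not given in the sources used here.

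The markers of macrophages were also read in TGF_KD_CM against TGF_VEC_CM. Their summed level was 29.7 to 32.3 CPM in TGF_VEC_CM and 23.9 to 26.2 CPM in TGF_KD_CM. Of the 7 tested, 2 were lower, 0 higher and 5 did not pass, beside 20.2% of all genes lower. Lyz2, which made up most of the sum, had 732, 778 and 705 counts in TGF_VEC_CM and 553, 580 and 512 in TGF_KD_CM, and Ptprc had 15, 35 and 30 and 9, 14 and 6. Among those that did not pass, Adgre1 had 26, 23 and 14 counts in TGF_VEC_CM and 40, 28 and 37 in TGF_KD_CM, and Cd68 had 259, 226 and 255 and 268, 253 and 253. The part of such cells in the members' values was not tested.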

How the data were processed

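The deposited table held raw read counts per gene symbol from the authors, without normalization; a second deposited table held FPKM values. Per the submitters' processing notes, the build was GRCm38 (mm10). For the mapping itself the aligner, read counter, use of strand and gene models were not given in the sources used here. Counts were tested with edgeR 4.0.16 (R 4.3.3): filterByExpr kept 14400 genes, TMM factors were used, and 1 robust quasi-likelihood model held a mean for each of the 4 groups of 3 libraries. Two-sided p-values were adjusted by Benjamini-Hochberg across the 14400 genes, and 0.05 was the threshold. FPKM served for levels between genes and for an alternative with limma 3.58.1 on log2(FPKM + 1). DESeq2 1.42.0, other factors and filters, a replicate block, fits of only the 2 groups compared and each library left out were the other alternatives. All members are named, and of each list at most the 3 called genes of largest change; 1 gene that this rule takes is not reported here. Promoter windows and positions come from RefSeq (GRCm38.p6); shared windows were counted in GENCODE M21 transcripts. The members and lists were chosen with earlier results of these data known. Precision is set by 3 libraries a group and 33379207 to 37226153 counts a library; floors cover counting error only. Protein sequences were not used here.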

Additional observations from a re-analysis of the deposited data

Results flagged for a closer look

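The effect of inhibition medium with TGF-beta1 differed from that of overexpression medium without it in each of the 9 members other than Tgtp1. The edgeR test was of the difference itself (TGF_KD_CM minus TGF_VEC_CM, less OE_CM minus VEC_CM). Tgtp1 entered the test only through the TGF_KD_CM libraries, so its value is given as a description. The manipulation, TGF-beta1 and the part of the study cannot be told apart in this difference, and Gbp5 lost the call in 11 of 19 alternatives. The difference in log2 fold change was 5.80 for Iigp1, 5.76 for Gbp3, 4.98 for Irgm2, 4.43 for Tgtp1 and 4.0 for Gbp7. It was 3.61 for Igtp, 2.70 for Gbp9, 2.15 for Irgm1, 1.76 for Gbp2 and 1.45 for Gbp5. Iigp1, Irgm2 and Gbp2 were called lower in OE_CM and higher in TGF_KD_CM. The OE_CM call of Iigp1 held under all 20 alternatives. Those of Irgm2 and Gbp2 were lost in some, such as without VEC_CM replicate 2. For Igtp and Irgm1 the OE_CM effect was small, at 0.07 and 0.20.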

How the results depend on the processing

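Over the 10 members, the 4 comparisons and all alternatives, 756 of 788 values kept their side of the threshold, 23 lost the call and 9 gained it. In TGF_KD_CM against TGF_VEC_CM 199 of 200 kept it and 0 calls were lost. These counts include Tgtp1, which entered the test only through the TGF_KD_CM libraries. Of values called, 0 changed sign; 8 values of 2 results that were not called did, Igtp in OE_CM against VEC_CM (-0.25 to 0.32) and Iigp1 in TGF_VEC_CM against VEC_CM (-0.25 to 0.11). The count of members past the threshold in OE_CM against VEC_CM was 4, and it was 2 with limma on log2(FPKM + 1), which compresses low genes by construction (for Gbp7 in TGF_KD_CM against TGF_VEC_CM it gave 0.64 in place of 3.58). It was 2 to 5 when 1 library was left out. Outside the members, 2 differences between the effects changed sign with limma on log2(FPKM + 1): that of Ifi47 was 0.299 and that of Ciita -0.0188; the cause was not tested. With a replicate block the counts of members were 4, 9, 5 and 10, as without it. Same-numbered libraries deviated together with r of 0.000387 to 0.0438. Libraries with different numbers were not compared, so these values cannot show whether the numbers pair the samples. Low counts in a library limit every member but Gbp2 and Irgm1, among them Iigp1 (4 to 9 counts) and Irgm2 (13 to 16) in OE_CM.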
